A study of Homo sapiens with 6 samples.

Results

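The genes described here encode the proteins of the mitochondrial ribosome, and they were chosen by symbol alone: MRPL for the large subunit or MRPS for the small subunit, a number and, for a few, a letter. Of 78 such symbols, 77 had at least 10 counts in at least 3 libraries, 49 of the large subunit and 28 of the small subunit, among 24976 symbols and unnamed loci in the table and 15638 that were tested. The symbol left out, MRPS18B, had 7 rows, and all of them were listed at 0 in every library. The libraries were RNA-seq of LN229, an established human glioblastoma cell line, in 2 groups of 3 cultures: GDH1 knockdown cells (siRNA1 to siRNA3) and control cells (NC1 to NC3). GDH1, official symbol GLUD1, encodes glutamate dehydrogenase, the mitochondrial enzyme that turns glutamate into 2-oxoglutarate. Both groups were grown in DMEM with 10% fetal bovine serum, and the knockdown cells were transfected with small interfering RNA (siRNA) and lipofectamine for 24 h. The labels call the control cells wild-type, while their titles and the protocol name an NC mixture, so whether the controls received a control siRNA is not settled by the labels. They do not say whether the knockdown cultures shared 1 siRNA, and all 6 cultures come from 1 line.

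Mitochondrial ribosomes sit in the mitochondrial matrix and translate the few mRNAs of the mitochondrial genome, all of which encode subunits of the respiratory chain or of ATP synthase. Their ribosomal RNAs come from the mitochondrial genome, but every protein of both subunits is encoded in the nucleus, made in the cytosol and imported. Some of these proteins have counterparts in all ribosomes, some only in bacterial ribosomes, and others are part of the ribosome only in mitochondria. Promoters of nuclear genes for mitochondrial proteins are known for binding sites of NRF1, of ETS factors such as GABP (also called NRF2) and of YY1.

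The promoters below show the motif cores that were searched, as they occur in 3 of the genes. They belong to MRPS10, the small subunit gene with the largest rise, to MRPL32, a large subunit gene that rose, and to MRPS26, the small subunit gene that fell. Each runs from 220 bases before to 30 bases after the start of the gene in RefSeq (GRCh38.p14), 5′ to 3′ on the strand of the gene. Capitals mark an ETS core (CCGGAAG), a YY1 core (AAGATGGC) or an NRF1 core (GCATGCGC) on either strand. They lie at chr6:42217832-42218081 on the minus strand (MRPS10), chr7:42932156-42932405 on the plus strand (MRPL32) and chr20:3045832-3046081 on the plus strand (MRPS26).
MRPS10: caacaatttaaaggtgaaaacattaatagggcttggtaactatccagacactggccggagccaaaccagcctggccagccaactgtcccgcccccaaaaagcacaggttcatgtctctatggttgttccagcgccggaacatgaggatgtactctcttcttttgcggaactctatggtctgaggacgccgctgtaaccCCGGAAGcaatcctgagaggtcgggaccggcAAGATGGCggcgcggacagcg
MRPL32: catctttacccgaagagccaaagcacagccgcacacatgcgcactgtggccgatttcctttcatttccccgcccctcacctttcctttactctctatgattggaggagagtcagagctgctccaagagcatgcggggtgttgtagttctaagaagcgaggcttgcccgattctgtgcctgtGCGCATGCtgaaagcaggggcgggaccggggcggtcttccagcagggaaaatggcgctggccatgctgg
MRPS26: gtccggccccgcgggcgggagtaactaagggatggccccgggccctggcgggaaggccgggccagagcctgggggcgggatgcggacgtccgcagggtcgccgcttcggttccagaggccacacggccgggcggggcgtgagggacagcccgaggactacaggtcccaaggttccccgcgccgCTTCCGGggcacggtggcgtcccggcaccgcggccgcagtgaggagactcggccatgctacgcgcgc

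MRPS10 held an ETS core 22 bases before the start and a YY1 core 9 bases after it, the median positions of these cores in the whole set. In the printed window MRPL32 held an NRF1 core and MRPS26 an ETS core, and the longer window used for the counts below also held a YY1 core in MRPL32. RefSeq promoters (250 bases before to 50 after the start) were matched for 68 of the 77 genes, and 29 of them (42.6%) held an ETS core, against 14.5% of 15183 promoters of protein-coding genes in the count table and 10.7% of all 27305 promoters. A YY1 core stood in 19 of the 68 (27.9%), against 3.98% of protein-coding and 3.03% of all promoters. An NRF1 core stood in 5 (7.35%), against 4.25% and 3.27%. The SP1 box GGGCGG stood in 61.8% of the 68, against 59.2% and 44.6%. Of the 68 promoters, 58.8% held an ETS or a YY1 core, against 17.5% of the protein-coding ones, and the 2 kinds of core overlapped in 0 of them. Of the matched genes that rose in knockdown cells, 4 of 13 held an ETS core (30.8%) and 4 a YY1 core (30.8%). Of those that edgeR did not call, 45.3% held an ETS core and 28.3% a YY1 core. These matches describe letters in a window, not occupancy by a factor.

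The targeted gene and the depth of the libraries were checked first. GLUD1 had 727, 877 and 933 counts in knockdown cells, against 3048, 2689 and 2813 in control cells. In CPM (counts scaled to an equal, TMM-normalised library size) this was 24.6 ± 3.22 and 86.5 ± 1.59 (SD, n = 3 each), a log2 fold change of -1.82 with a standard error of 0.10 (adjusted p = 7.46e-07, edgeR's quasi-likelihood test). Libraries held 31201100 to 35619614 counts, and the mitoribosome genes had between 248 and 5922 counts each in a library. Of the glial and glioma markers, VIM, NES, CD44, EGFR and S100B had over 1000 counts in every library, whereas GFAP, the defining astrocyte marker, had 8 to 23 counts and OLIG2 121 to 389. Several of them moved with the knockdown: CD44 (log2 fold change 0.44), EGFR (0.40) and VIM (0.21) were called higher, and S100B (-1.13) and OLIG2 (-1.10) lower, by edgeR. Markers of 6 other cell types summed to 3.39 to 4.88 CPM in knockdown libraries and 6.12 to 7.82 CPM in control libraries. MBP, called lower (-0.89), had 78 to 208 counts, and PTPRC, PECAM1, EPCAM and ALB had 0 to 13 counts. Their part in the results below was not tested. In bulk RNA, fewer cells of a type and less RNA per cell cannot be told apart. Knockdown replicate 1 stood apart from the other knockdown libraries in the genes described here, as the values below show, and counts of calls are also given without it.

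After GDH1 knockdown, mRNAs of the mitochondrial ribosome changed by small amounts, and more of them rose than fell in both subunits. Of the 77 genes, 14 rose (18.2%) and 2 fell (2.60%) at an adjusted p under 0.05. Over all tested features, 26.1% were called, 13.0% higher and 13.1% lower. The median log2 fold change was 0.09 over the 77 genes, against -0.00 over all features, whose quartiles were -0.25 and 0.21. The large subunit had 9 genes higher and 1 lower of 49, with a median of 0.07, and the small subunit had 5 higher and 1 lower of 28, with a median of 0.12. The share of genes that rose was thus 18.4% in the large and 17.9% in the small subunit, and the difference between subunits was not tested. The genes that rose were MRPL1, MRPL39, MRPL58, MRPL35, MRPL32, MRPL47, MRPL9, MRPL19 and MRPL37 in the large subunit and MRPS10, MRPS35, MRPS22, MRPS30 and MRPS6 in the small one. Those that fell were MRPL34 and MRPS26.

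**Figure D1:**
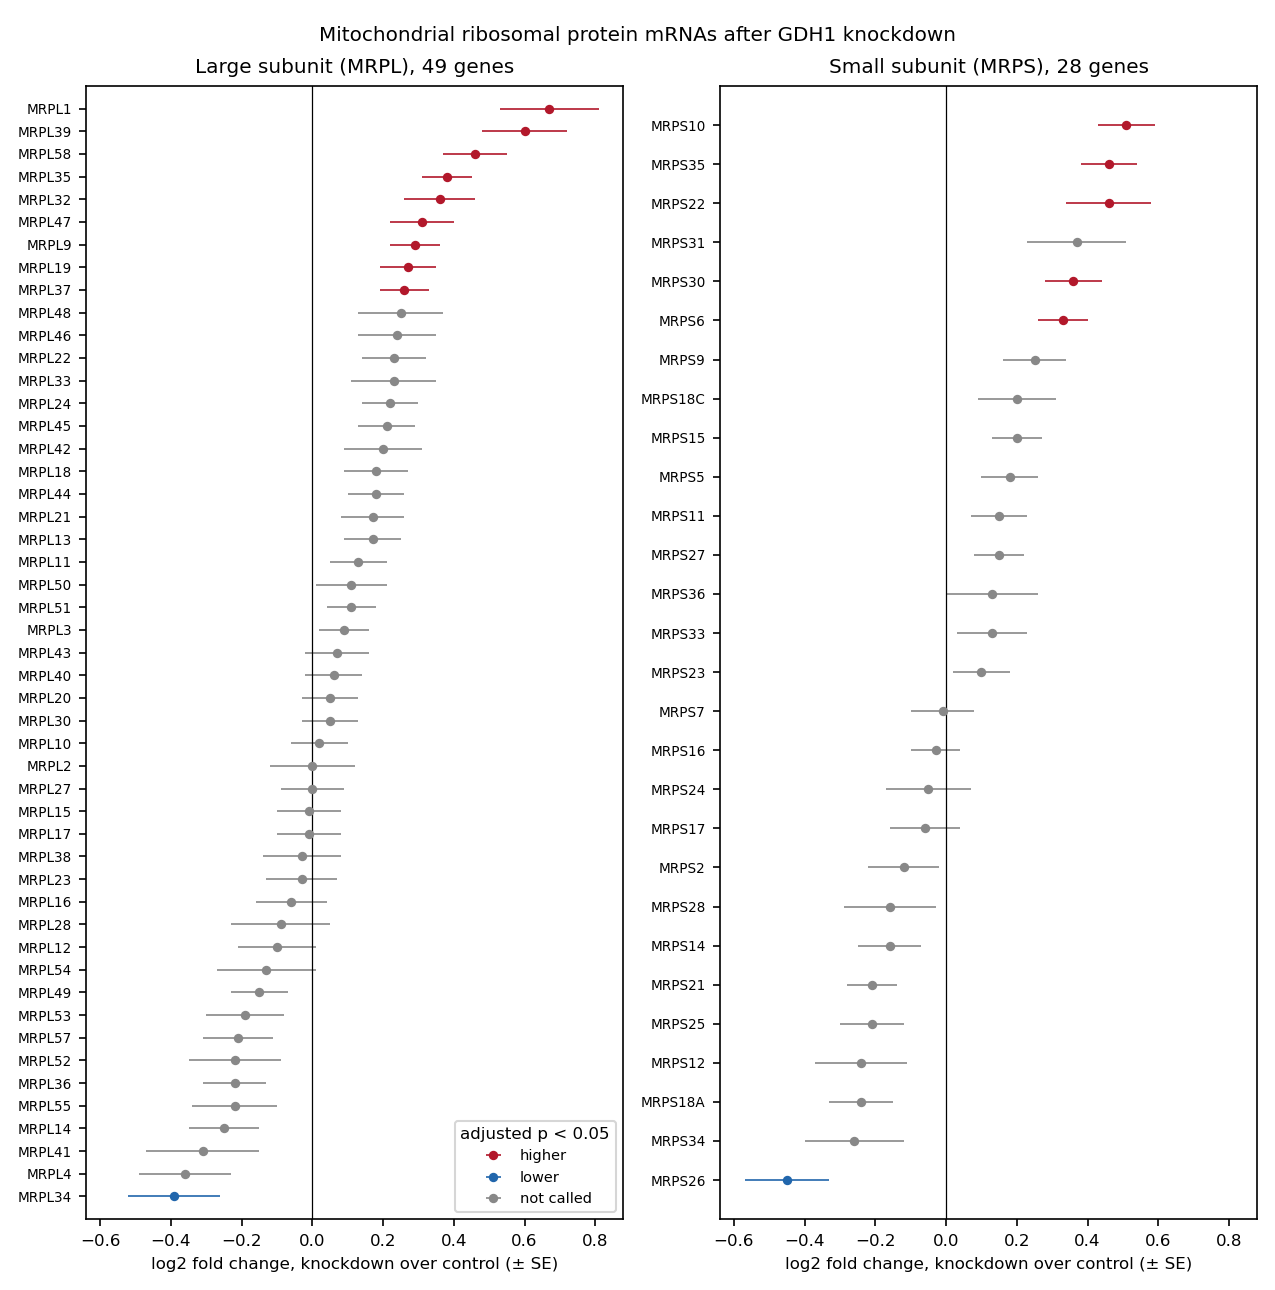
Log2 fold change in knockdown over control cells, with its standard error, of the 49 large subunit genes (left) and 28 small subunit genes (right), each ordered by fold change. Genes called at an adjusted p under 0.05 are red (higher) or blue (lower) and the other genes are grey. Called values run between -0.45 (MRPS26) and 0.67 (MRPL1).

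These counts depended on single libraries. Without knockdown replicate 1, 22 of the genes were called higher and 17 lower, while calls over all features also went up, to 2978 higher and 3258 lower of 15911. Leaving out control replicate 1 gave 8 higher and 0 lower, and so did leaving out control replicate 3. Calls over all features were also fewer in these fits, 1163 higher and 1053 lower of 15914 and 1161 and 1069 of 15977, against 2037 and 2048 with all libraries. With knockdown replicate 2 removed there were 10 and 0 (over all features 1190 and 1135). With knockdown replicate 3 removed there were 12 and 1 (over all features 1767 and 1684), and with control replicate 2 removed 10 and 2 (over all features 1432 and 1502). MRPL1, MRPL35, MRPL39, MRPL58, MRPS6, MRPS10 and MRPS35 were called higher in all 17 alternative fits that were run. The calls of MRPL47 and MRPL19 were kept in 1 of the 6 fits that left out a library, that of MRPL34 in 2, that of MRPL37 in 2, and those of MRPL32 and MRPS26 in 3.

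Among large subunit proteins with counterparts in all ribosomes, MRPL1 and MRPL47 rose. MRPL1 (chr4:77862830-77952785), the protein of the L1 stalk by which spent tRNA leaves, had 17.2, 22.2 and 24.5 CPM in knockdown cells, against 11.9, 14.5 and 13.9 CPM in control cells. All knockdown libraries lay above all controls, by 1.59-fold on average (log2 fold change 0.67, SE 0.14, adjusted p = 0.00494 by edgeR), the largest change in the set. MRPL47 (chr3:179588285-179604646), counterpart of bacterial L29 near the exit of the nascent chain, had 32.6, 37.7 and 36.6 CPM in knockdown cells, against 26.6, 30.1 and 29.3 CPM in control cells. Its groups did not overlap, and the log2 fold change was 0.31 (SE 0.09, adjusted p = 0.0302 by edgeR).

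Among large subunit proteins shared only with bacterial ribosomes, MRPL35, MRPL32, MRPL9 and MRPL19 rose and MRPL34 fell. MRPL35 (chr2:86199433-86213794) had 67.8, 69.1 and 73.6 CPM in knockdown cells, against 53.5, 53.0 and 55.4 CPM in control cells (log2 fold change 0.38, SE 0.07, adjusted p = 0.00365 by edgeR). MRPL32 (chr7:42932376-42937857), whose precursor is cut by the m-AAA protease before the protein joins the ribosome, had 35.8, 38.2 and 38.0 CPM in knockdown cells, against 26.0, 28.6 and 32.8 CPM in control cells (log2 fold change 0.36, SE 0.10, adjusted p = 0.0216). Neither gene had overlapping groups, but for MRPL32 the third control came close to the knockdown libraries. MRPL9 (chr1:151759647-151763496) had 76.7, 72.7 and 74.3 CPM in knockdown cells, against 61.0, 61.8 and 60.7 CPM in control cells (log2 fold change 0.29, SE 0.07, adjusted p = 0.0127). MRPL19 (chr2:75646783-75662206) had 73.1, 78.2 and 86.8 CPM in knockdown cells, against 65.1, 69.8 and 63.2 CPM in control cells (log2 fold change 0.27, SE 0.08, adjusted p = 0.0383). Both were separate between groups, and in MRPL9 the spread among the controls was the smaller one, with an SD of 0.586 CPM. MRPL34 (chr19:17292573-17306843) had 25.1, 21.7 and 18.0 CPM in knockdown cells, against 31.2, 24.6 and 28.7 CPM in control cells. The lowest control lay below the highest knockdown library, and the fall of 0.39 on the log2 scale (SE 0.13) was just past the threshold (adjusted p = 0.0487 by edgeR).

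Among large subunit proteins that are part of the ribosome only in mitochondria, MRPL39, MRPL58 and MRPL37 rose. MRPL39 (chr21:25585656-25607859) had 26.4, 23.1 and 28.0 CPM in knockdown cells, against 14.5, 18.6 and 18.2 CPM in control cells, or 1.51-fold more (log2 fold change 0.60, SE 0.12, adjusted p = 0.00428 by edgeR). MRPL58 (chr17:75012670-75021261), also called ICT1, is a peptidyl-tRNA hydrolase that frees stalled ribosomes and is also built into the large subunit. It had 29.7, 25.6 and 28.4 CPM in knockdown cells, against 19.9, 21.0 and 19.9 CPM in control cells (log2 fold change 0.46, SE 0.09, adjusted p = 0.0047). In both genes every knockdown library exceeded every control. MRPL37 (chr1:54200167-54225489) had 170.0, 152.3 and 151.2 CPM in knockdown cells, against 130.5, 133.2 and 131.5 CPM in control cells (log2 fold change 0.26, SE 0.07, adjusted p = 0.02), and knockdown replicate 1 was the highest library. MRPL44 (chr2:223950854-223967714), whose fold resembles a ribonuclease III, had 35.3, 35.6 and 36.2 CPM in knockdown cells, against 31.5, 32.4 and 30.5 CPM in control cells. The groups were separate, but the log2 fold change of 0.18 (SE 0.08) did not pass the test (adjusted p = 0.124). MRPL45 (chr17:38297168-38323211), which fixes the ribosome to the inner membrane near the exit tunnel, had 45.0, 44.2 and 47.0 CPM in knockdown cells, against 36.3, 41.0 and 40.4 CPM in control cells (log2 fold change 0.21, SE 0.08, adjusted p = 0.0866).

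In the small subunit, the rises were in MRPS10, MRPS35, MRPS22, MRPS30 and MRPS6. MRPS10 (chr6:42206807-42217861), counterpart of S10 of all ribosomes, had 60.9, 61.9 and 67.2 CPM in knockdown cells, against 42.0, 46.9 and 44.1 CPM in control cells. This 1.43-fold difference (log2 fold change 0.51, SE 0.08) had the smallest adjusted p of the set (0.000973, edgeR). MRPS35 (chr12:27710832-27756295), found only in mitochondria, had 52.5, 52.8 and 55.8 CPM in knockdown cells, against 37.1, 41.2 and 39.1 CPM in control cells (log2 fold change 0.46, SE 0.08, adjusted p = 0.00191). MRPS22 (chr3:139343994-139357140), also found only in mitochondria, had 39.1, 38.3 and 45.9 CPM in knockdown cells, against 25.8, 34.3 and 29.9 CPM in control cells (log2 fold change 0.46, SE 0.12, adjusted p = 0.0139). The 3 genes had no overlap between groups, and MRPS22 had the widest spread among them, with an SD of 4.15 CPM in knockdown cells and 4.25 CPM in control cells. MRPS6 (chr21:34073578-34143030), shared with bacterial ribosomes, had 122.1, 133.1 and 139.8 CPM in knockdown cells, against 102.9, 106.0 and 104.8 CPM in control cells (log2 fold change 0.33, SE 0.07, adjusted p = 0.00664). MRPS26 (chr20:3046052-3048250), found only in mitochondria, had 48.8, 40.6 and 33.8 CPM in knockdown cells, against 59.2, 51.8 and 57.8 CPM in control cells. Every knockdown library lay below every control, the knockdown libraries differed widely among themselves (SD 7.53 CPM), and the log2 fold change was -0.45 (SE 0.12, adjusted p = 0.0185).

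**Figure D2:**
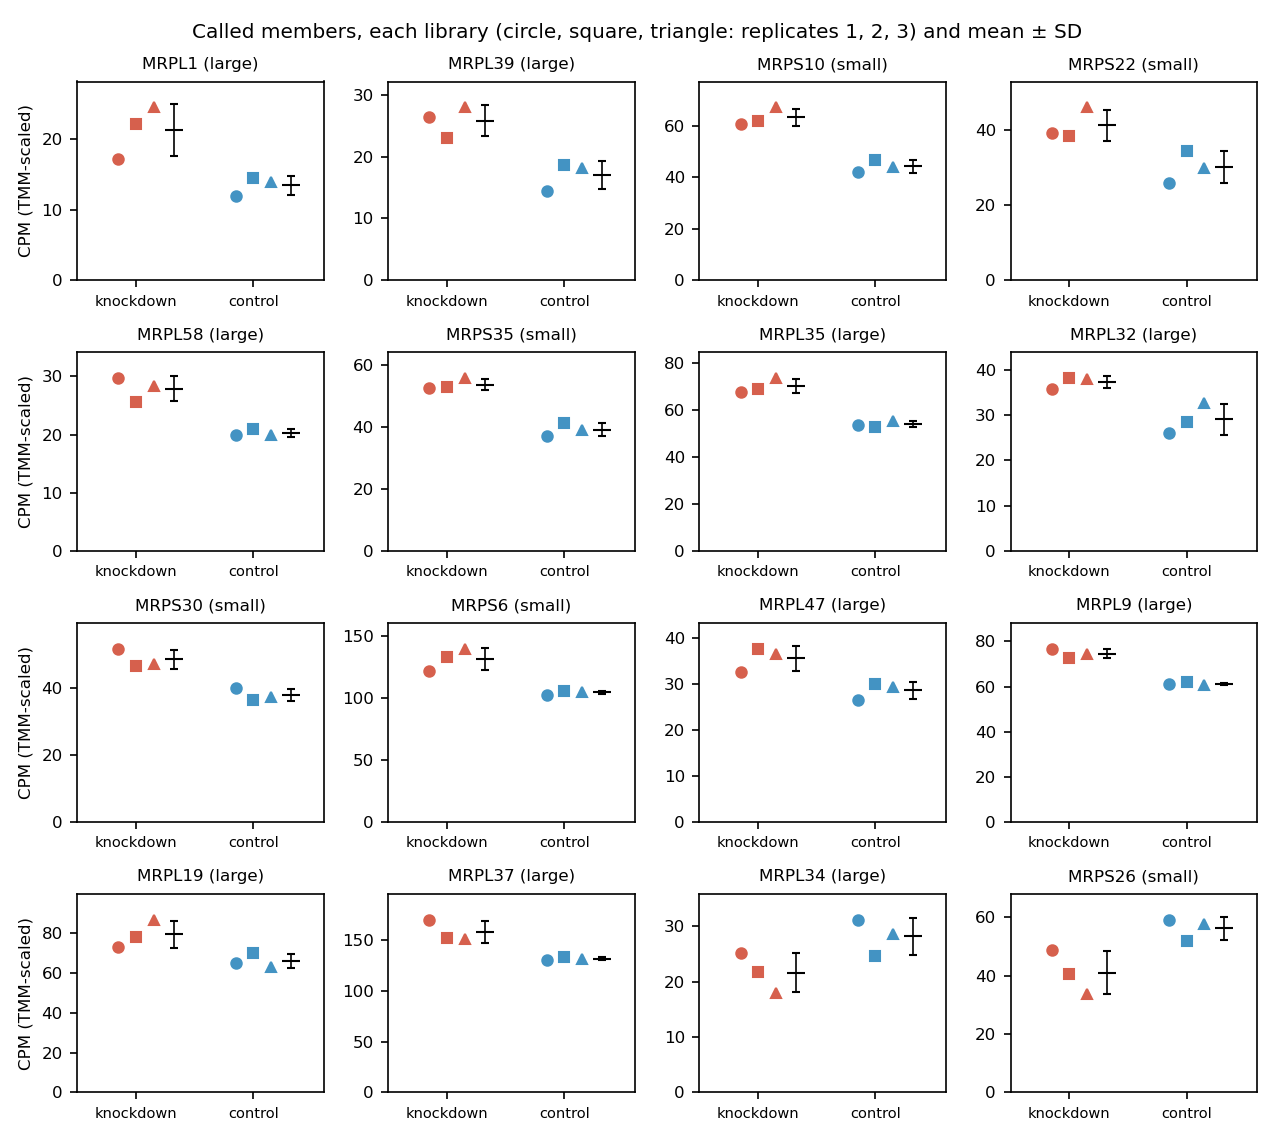
CPM of the 16 called genes in each library, with the knockdown libraries at the left and the control libraries at the right of each panel, the mean ± SD beside each group, and axes that start at 0. In all panels except MRPL34 the groups are separate, with knockdown above control in 14 panels and below it in MRPL34 and MRPS26.

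For a few genes the symbol does not give the place of the protein. Structures of the mammalian ribosome put MRPS30 and MRPS18A in the large subunit, and MRPS36 is no ribosomal protein but an adaptor that joins parts of the 2-oxoglutarate dehydrogenase complex, the enzyme that uses the product of glutamate dehydrogenase. MRPS30 (chr5:44808947-44815514) had 51.7, 46.7 and 47.3 CPM in knockdown cells, against 39.9, 36.3 and 37.3 CPM in control cells (log2 fold change 0.36, SE 0.08, adjusted p = 0.00903 by edgeR). MRPS18A (chr6:43671202-43687791) had 41.6, 41.2 and 36.7 CPM in knockdown cells, against 50.8, 42.4 and 48.2 CPM in control cells (log2 fold change -0.24, SE 0.09, adjusted p = 0.0782). MRPS36 had 15.6, 17.9 and 18.2 CPM in knockdown cells, against 12.8, 16.9 and 17.6 CPM in control cells (log2 fold change 0.13, SE 0.13, adjusted p = 0.498). MRPS30 was separate between groups on the high side and MRPS18A on the low side, and MRPS36 overlapped. With the proteins placed by structure, 10 of 51 large subunit genes were higher and 1 lower (median 0.07), and 4 of 25 small subunit genes were higher and 1 lower (median 0.10).

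By origin, 3 of 27 genes with counterparts in all ribosomes were higher (11.1%) and 0 lower by edgeR. Of these 27, 2 were lower at an unadjusted p under 0.05, and 1 was lower by DESeq2 and by limma-voom. Of 19 shared with bacteria, 5 were higher (26.3%) and 1 lower (5.26%) by edgeR, and 2 were lower by DESeq2. Of 30 found only in mitochondrial ribosomes, 6 were higher (20.0%) and 1 lower (3.33%). The 3 medians were 0.05, 0.00 and 0.11 in that order. Over all tested features, 13.0% were called higher and 13.1% lower. The groups were not tested against each other.

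The remaining 61 genes, 39 of the large and 22 of the small subunit, were not called by edgeR, with log2 fold changes from -0.36 (MRPL4) to 0.25 (MRPL48) in the large and from -0.26 (MRPS34) to 0.37 (MRPS31) in the small subunit. MRPS9 (0.25, adjusted p = 0.0552 by edgeR), MRPS21 (-0.21, adjusted p = 0.0553), MRPL4 (-0.36, adjusted p = 0.0572) and MRPL24 (0.22, adjusted p = 0.0573) came closest to the threshold. Of the 61, DESeq2 called MRPL24 higher (adjusted p = 0.0445) and MRPL4 (0.0262) and MRPS21 (0.0429) lower, and limma-voom called MRPL4 lower (0.0479). Without regard to a test, 29 of the 77 genes (37.7%) had every knockdown library above every control, and 8 (10.4%) had every one below. The same held for 21.6% and 20.5% of all features. In the large subunit the counts were 18 above and 3 below, and in the small subunit 11 above and 5 below. An unadjusted p under 0.05 by edgeR was found for 22 of the 77 on the high side and 8 on the low side. Over all 15638 tested features the same threshold gave 2998 on the high side and 3054 on the low side.

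The summed level changed little. The 77 genes together had 3688, 3457 and 3489 CPM in knockdown libraries, against 3347, 3325 and 3419 CPM in control libraries, which is 0.361, 0.347 and 0.350% against 0.335, 0.335 and 0.343% of all counts. Each knockdown sum exceeded each control sum, and knockdown replicate 1 had the highest. The large subunit summed to 2312, 2144 and 2171 CPM in knockdown libraries and 2074, 2070 and 2127 CPM in control libraries, and the small subunit to 1376, 1313 and 1318 CPM in knockdown libraries and 1273, 1255 and 1292 CPM in control libraries. Large over small was 1.68, 1.63 and 1.65 in knockdown libraries and 1.63, 1.65 and 1.65 in control libraries, so the balance of the subunits overlapped between groups.

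Although the ribosome holds 1 copy of most of these proteins, their mRNA levels per kilobase of transcript covered a wide range. The highest level in the large subunit was that of MRPL37 in knockdown cells, with 106.4 CPM per kilobase against 88.8 in control cells, and that of MRPL12 in control cells, with 99.2 CPM per kilobase in knockdown cells and 106.0 in control cells. MRPL12 is the stalk protein that binds translation factors and is present in several copies per ribosome. MRPL12 (chr17:81703367-81707517) had 122.4, 94.5 and 89.0 CPM in knockdown cells, against 117.2, 100.7 and 109.1 CPM in control cells, with overlapping groups (log2 fold change -0.10, SE 0.11, adjusted p = 0.572 by edgeR). The lowest in both groups was MRPL42, with 3.74 CPM per kilobase in knockdown cells and 3.26 in control cells. Its reference transcript of 15582 bases may be far longer than the one expressed, so this level is uncertain. MRPL42 (chr12:93467514-93516214) had 50.1, 57.0 and 67.6 CPM in knockdown cells, against 48.4, 50.1 and 53.7 CPM in control cells (log2 fold change 0.20, adjusted p = 0.192). Next lowest was MRPL50, with 5.86 CPM per kilobase in knockdown cells and 5.42 in control cells. In the small subunit the highest was MRPS6, with 133.0 CPM per kilobase in knockdown cells and 105.6 in control cells. The lowest was MRPS25, with 6.68 in knockdown cells and 7.74 in control cells. MRPS25 (chr3:15042251-15065315) had 32.3, 29.8 and 29.8 CPM in knockdown cells, against 38.0, 34.8 and 33.7 CPM in control cells, separate on the low side without passing the test (log2 fold change -0.21, SE 0.09, adjusted p = 0.0995). The medians were 28.5 CPM per kilobase in knockdown cells and 28.7 in control cells for the large subunit, and 28.7 in knockdown cells and 24.9 in control cells for the small subunit.

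The fold change of the members ran with the base composition of their transcripts. Across the 77 genes the log2 fold change fell with GC content of the reference transcript (Spearman's rho -0.60 over 77 genes that share the same 6 libraries, -0.62 over 49 large and -0.56 over 28 small subunit genes). The same trend ran through all 13254 features with a reference transcript (rho -0.45). Transcripts of the 14 genes that rose had a median GC content of 42.9%, with a range from 38.0% to 55.8%. Those of the 2 genes that fell had 55.2% (MRPL34) and 63.4% (MRPS26), so the ranges overlapped, and the difference was not tested. All 77 genes had a median of 49.1%, with a range from 35.0% to 71.9%. Base composition is shown in stretches of 120 bases from the middle of the coding sequence, with G and C in capitals, read from GENCODE transcripts of GRCh38 on the strand of the gene. MRPL1 (chromosome 4, coding bases 427 to 546) and MRPL39 (chromosome 21, coding bases 448 to 567) had the largest rises. MRPS26 (chromosome 20, coding bases 247 to 366) fell, and MRPL12 (chromosome 17, coding bases 238 to 357) was not called. G and C make up 40.8% of each of the first 2 stretches, 72.5% of that of MRPS26 and 58.3% of that of MRPL12.
MRPL1: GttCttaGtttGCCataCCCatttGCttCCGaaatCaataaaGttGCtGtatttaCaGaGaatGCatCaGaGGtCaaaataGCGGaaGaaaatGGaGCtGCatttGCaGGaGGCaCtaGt
MRPL39: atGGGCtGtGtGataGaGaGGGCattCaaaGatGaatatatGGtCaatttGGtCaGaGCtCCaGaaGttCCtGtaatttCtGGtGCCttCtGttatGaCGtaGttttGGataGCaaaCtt
MRPS26: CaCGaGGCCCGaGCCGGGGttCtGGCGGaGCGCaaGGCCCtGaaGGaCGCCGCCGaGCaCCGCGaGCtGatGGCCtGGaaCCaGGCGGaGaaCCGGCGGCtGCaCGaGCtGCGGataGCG
MRPL12: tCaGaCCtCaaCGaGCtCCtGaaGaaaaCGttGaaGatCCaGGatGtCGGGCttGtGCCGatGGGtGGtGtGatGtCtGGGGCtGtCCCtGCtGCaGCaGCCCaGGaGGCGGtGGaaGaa

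Of the 38 genes below the median GC content, 11 rose and 0 fell, with a median log2 fold change of 0.19, while 1 was lower at an unadjusted p under 0.05 and DESeq2 and limma-voom likewise called 11 higher and 0 lower. Of the 39 genes at or above it, 3 rose and 2 fell, with a median of -0.05. Over all tested features of any GC content, 13.0% were called higher and 13.1% lower. The share called among all features of like GC content was not computed, so these counts are not set apart from the general trend. In 5 bins with equal numbers of features, the median of all features went down from 0.15 in the bin with the lowest GC content through 0.11, 0.02 and -0.12 to -0.28, and the median of the mitoribosome genes in the same bins was 0.25, 0.21, 0.02, 0.01 and -0.13. The bins held 12, 14, 22, 16 and 13 of these genes. They lay above all features in 4 of the bins and level with them in the third.

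Library by library, the GC-poor genes were higher in every knockdown culture, whereas the GC-rich genes differed among the knockdown cultures. The median difference in log2 CPM from the control mean was 0.14, 0.18 and 0.23 in knockdown replicates 1, 2 and 3 for the 38 GC-poor genes, against -0.07, 0.05 and 0.04 in control replicates 1, 2 and 3. For the 39 GC-rich genes it was 0.10, -0.08 and -0.22 in the knockdown replicates, against 0.01, -0.05 and 0.02 in the control replicates. Knockdown replicate 1 was thus above the controls and knockdown replicate 3 below them. MRPL38, with 64.6% GC, had 96.7, 71.5 and 69.9 CPM in knockdown cells, against 83.7, 78.3 and 81.9 CPM in control cells. MRPL23, with 66.3% GC, had 79.7, 66.0 and 60.2 CPM in knockdown cells, against 71.1, 69.1 and 70.0 CPM in control cells. Both showed the high first knockdown library, and in 48 of the 77 genes the SD was larger in knockdown than in control cells. The same count was not made over all tested features, so it is not shown to be particular to these genes.

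**Figure D3:**
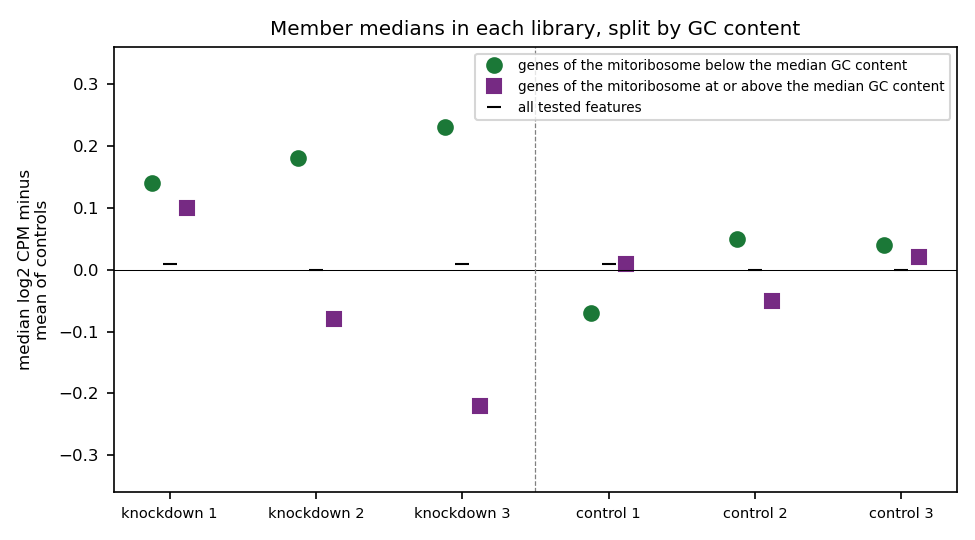
Median difference in log2 CPM from the mean of the controls in each library, for the 38 mitoribosome genes below the median GC content (circles), the 39 at or above it (squares) and all tested features (dashes). Circles lie between 0.14 and 0.23 in the knockdown libraries at the left, and squares spread between -0.22 and 0.10 there.

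When the trend over GC content and transcript length was removed within each library, more genes of both subunits were called, in both directions. With this correction, 26 of the 77 were higher and 6 lower, against 34.9% of all features called (20.7% higher and 14.2% lower). The large subunit had 18 higher and 3 lower with a median log2 fold change of 0.14, the small subunit 8 higher and 3 lower with a median of 0.09, and all features had a median of 0.02. Of the 14 genes that rose without the correction, 13 were called higher with it, the exception being MRPL47 (log2 fold change 0.18, adjusted p = 0.0525 by edgeR). Of the 2 that fell, MRPL34 was again called lower (-0.29, adjusted p = 0.0157), and MRPS26 was not (-0.13, adjusted p = 0.0725). The correlation with GC content was 0.05 over the 77 genes after correction.

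The 13 genes called higher only with the correction were MRPL46, MRPL24, MRPL45, MRPS15, MRPS5, MRPL21, MRPS11, MRPL43, MRPL40, MRPL23, MRPL38, MRPL12 and MRPL41. MRPL23, which sits at the exit of the tunnel, had the largest corrected value of these (0.42, SE 0.05, adjusted p = 2.63e-06 by edgeR), against -0.03 without the correction. MRPL12 turned to 0.27 (SE 0.04, adjusted p = 3.70e-05), against -0.10 without it, and MRPL41, the gene with the highest GC content (71.9%), to 0.30 (SE 0.08, adjusted p = 0.00417), against -0.31 without it. The 5 genes called lower only with the correction were MRPS14, MRPS21, MRPL57, MRPS25 and MRPL36, with corrected log2 fold changes between -0.27 (MRPS14) and -0.17 (MRPL36). MRPS36, which was not called, turned to -0.02 (adjusted p = 0.906). Corrected log2 fold changes were 0.53 for MRPL1, 0.49 for MRPL39 and for MRPL58, and 0.41 for MRPS10.

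**Figure D4:**
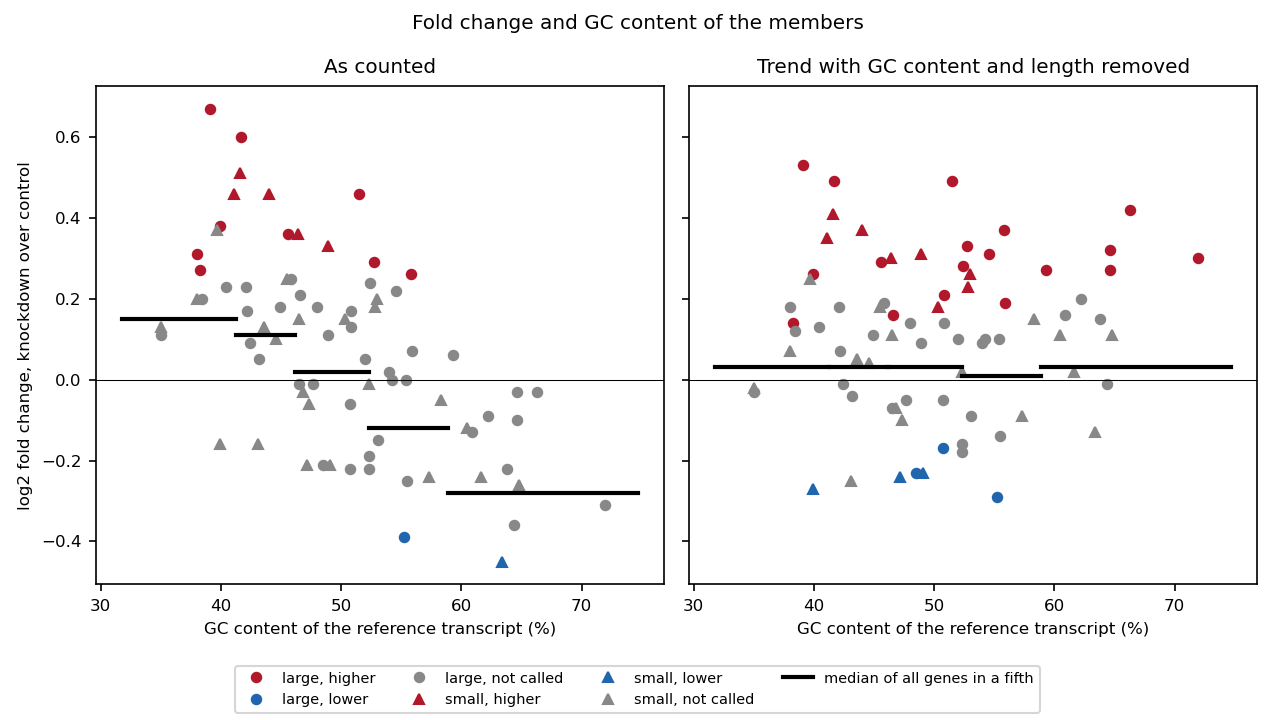
Log2 fold change in knockdown over control cells against GC content of the reference transcript for the 77 genes, as counted (left) and with the trend over GC content and length removed (right). Circles are large and triangles small subunit genes, red and blue mark calls, and black bars give the median of all features in each of 5 bins, which runs between 0.15 and -0.28 at the left and between 0.01 and 0.03 at the right.

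Genes that act with the mitoribosome did not share 1 direction. Of the 5 ribosomal proteins listed under other symbols, DAP3, a GTP-binding protein of the small subunit, rose, with 155.7, 151.5 and 169.6 CPM in knockdown cells, against 125.0, 133.4 and 132.8 CPM in control cells (log2 fold change 0.29, SE 0.07, adjusted p = 0.0133 by edgeR). PTCD3 (0.13), CHCHD1 (-0.11), GADD45GIP1 (-0.17) and AURKAIP1 (-0.34) were not called by edgeR, while AURKAIP1 was lower by DESeq2 (adjusted p = 0.0268) and by limma-voom (adjusted p = 0.0497). Against 13.0% higher and 13.1% lower over all features, 0 of 32 factors that assemble the ribosome or modify its RNA rose and 3 fell (9.38%) by edgeR. The median of the 32 was -0.06. On the high side 4 had an unadjusted p under 0.05, and DESeq2 called 1 higher and limma-voom 0. MALSU1, which keeps the large subunit from joining too early, had 37.9, 36.2 and 41.7 CPM in knockdown cells, against 47.0, 48.6 and 51.1 CPM in control cells (log2 fold change -0.34, adjusted p = 0.0137). RPUSD3, a pseudouridine synthase, fell by 0.39 (adjusted p = 0.0307 by edgeR), and MPV17L2, an inner membrane protein needed for assembly, fell by 0.42 (adjusted p = 0.0387).

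Of 16 translation factors, 4 rose and 1 fell. MRRF, which recycles ribosomes after termination, had 32.2, 33.3 and 29.7 CPM in knockdown cells, against 21.4, 23.1 and 22.3 CPM in control cells (log2 fold change 0.51, adjusted p = 0.00196 by edgeR). MTIF2, the factor that brings the initiator tRNA, had 51.8, 51.6 and 62.4 CPM in knockdown cells, against 37.6, 42.8 and 39.0 CPM in control cells (log2 fold change 0.47, adjusted p = 0.00462). All knockdown libraries exceeded all controls in both genes. GUF1, a homolog of bacterial LepA, rose by 0.36 on the log2 scale (adjusted p = 0.0088), and MTIF3, another initiation factor, by 0.38 (adjusted p = 0.0321). PDF, which removes the formyl group from new mitochondrial proteins, had 17.5, 10.3 and 10.4 CPM in knockdown cells, against 17.9, 18.9 and 19.1 CPM in control cells (log2 fold change -0.55, adjusted p = 0.0473), so that knockdown replicate 1 lay near the controls. Over the 53 genes of these 3 lists there were 5 higher (9.43%) and 4 lower (7.55%), and 6 and 6 by DESeq2. Both edgeR shares lay below those of all features, 13.0% and 13.1%. Leaving out knockdown replicate 1 gave 13 and 13, knockdown replicate 2 gave 4 and 0, and knockdown replicate 3 gave 4 and 1. Leaving out a control gave 3 and 1 (control replicate 1), 5 and 2 (control replicate 2) or 2 and 0 (control replicate 3). Over all features, calls also went up without knockdown replicate 1, to 2978 and 3258. Every other fit that left out a library gave fewer calls over all features than the 2037 and 2048 with all libraries. With the correction for GC content, 10 of the 53 were higher (18.9%) and 1 lower (1.89%), MALSU1, against 20.7% and 14.2% of all features.

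The mRNAs that mitochondrial ribosomes translate went the other way. Of the 13 mRNAs of the mitochondrial genome, 0 rose and 8 fell (61.5%) by edgeR, against 13.0% and 13.1% of all features. The median log2 fold change of the 13 was -0.24. Every fold change lay below 0, though those of ND6 (-0.01), ND4L (-0.08) and ND5 (-0.10) were small and not called. An unadjusted p under 0.05 by edgeR was found for 9 of the 13, and higher calls numbered 0 by DESeq2 and by limma-voom too. COX3, a core subunit of cytochrome c oxidase, had 2171.5, 2381.8 and 2374.0 CPM in knockdown cells, against 3251.4, 3652.8 and 3581.9 CPM in control cells (log2 fold change -0.60, SE 0.07, adjusted p = 7.64e-05 by edgeR). ATP6, a subunit of the proton channel of ATP synthase, had 2172.3, 2252.8 and 2552.6 CPM in knockdown cells, against 3154.7, 3612.0 and 3293.4 CPM in control cells (log2 fold change -0.53, SE 0.07, adjusted p = 0.000471). COX1, the catalytic subunit of cytochrome c oxidase, fell by 0.39 (adjusted p = 0.0013), and CYTB, the cytochrome b of complex III, by 0.29 (adjusted p = 0.0106). The groups of these 4 mRNAs did not overlap. The count of 8 became 3 when control replicate 2 was left out, 5 for control replicate 3 and 4 for knockdown replicate 2, and it was 10 with the correction for GC content. Lower calls over all features were 1502, 1069, 1135 and 2223 in the same fits, against 2048 in the main fit. The mitochondrial ribosomal RNAs were not analysed here.

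Cytosolic ribosomal protein genes, the counterpart outside the mitochondrion, rose more often. Of 78 tested, 24 were higher (30.8%) and 0 lower by edgeR, against 13.0% and 13.1% of all features. The median log2 fold change of the 78 was 0.10, against 0.09 for the mitochondrial set. On the low side 1 had an unadjusted p under 0.05, and DESeq2 called 27 higher and 0 lower, limma-voom 24 and 0. Among the highest were RPL36A, with 205.2, 235.7 and 250.3 CPM in knockdown cells, against 146.0, 153.8 and 167.1 CPM in control cells (log2 fold change 0.57, adjusted p = 0.000708 by edgeR), and RPS26, with 201.2, 198.7 and 192.7 CPM in knockdown cells, against 137.7, 142.2 and 148.6 CPM in control cells (log2 fold change 0.47, adjusted p = 0.000454). RPL21 (0.59), RPL9 (0.39), RPL6 (0.38), RPS27A (0.32) and RPS6 (0.31) also rose, though these genes have many processed copies whose reads could be shared. The calls were spread over both cytosolic subunits, with 15 of 47 in the large and 9 of 31 in the small one. The count was 9, 14 and 14 with control replicate 1, 2 or 3 left out, 12 with knockdown replicate 2 left out, and 30, with 6 lower, with knockdown replicate 1 left out. Over all features, higher calls in these fits were 1163, 1432, 1161, 1190 and 2978 in the same order, against 2037 with all libraries. With the correction for GC content, 50 of the 78 were higher (64.1%) and 0 lower, against 20.7% and 14.2% of all features. Whether the 2 sets differed from each other was not tested.

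Some counts carry limits that follow from the positions of the genes. MRPL23, MRPL45, MRPS12 and MRPS36 had several rows in the table, which were summed, and reads were shared unevenly between the rows. The first row of MRPL23 held 1225, 980 and 725 counts in knockdown libraries, against 1089, 114 and 1023 in control libraries, while the sums of its rows were 2777, 2212 and 2103 in knockdown libraries, against 2452, 2174 and 2299 in control libraries. The exons of 22 of the genes overlap exons of a gene on the other strand, and with the strand setting of the counting unknown, reads of such partners may be mixed. The overlap covered 56.9% of the transcript of MRPS18A (with RSPH9) and 78.9% of that of MRPS18C (with ABRAXAS1). Called genes among the 22 were MRPL9, MRPL19, MRPL32, MRPL47 and MRPS22. RefSeq lists 104 pseudogenes for 41 of the genes, and 8 of the 41 were called, while 26.1% of all tested features were. The count table held rows for 0 of these pseudogenes, so how reads that match both were assigned cannot be seen.

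Many of these genes start close to another gene that runs the opposite way. Neighbours were sought only for the 68 of the 77 genes with a matched RefSeq promoter, and the other genes were not assessed. For 19 of the 68, a tested protein-coding neighbour started within 1000 bases, and 2 of the 19 were called, MRPL32 and MRPL37. Their neighbours did not pass: PSMA2, a proteasome subunit gene 202 bases from MRPL32, had a log2 fold change of 0.20 (adjusted p = 0.0848 by edgeR), and CYB5RL, 137 bases from MRPL37, one of 0.03 (adjusted p = 0.857). Of the neighbours, 4 were called while the mitoribosome gene beside them was not. Over all tested features, 26.1% were called. TCP1, a chaperonin subunit gene 210 bases from MRPL18, was higher by 0.39 on the log2 scale (adjusted p = 0.00259). EME1, 45 bases from MRPL27, was higher by 0.40 (adjusted p = 0.00749), and SKA3, 106 bases from MRPL57, by 0.37 (adjusted p = 0.0141). HIRA, a histone chaperone gene 812 bases from MRPL40, fell by 0.40 (adjusted p = 0.00378). MRPL46 and MRPS11, 1 gene of each subunit, start 320 bases apart on chromosome 15 and had log2 fold changes of 0.24 (adjusted p = 0.138) and 0.15 (adjusted p = 0.222).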

How the data were processed

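The authors deposited 1 table of raw counts per gene row for the 6 libraries. The submitters' processing notes name the build GRCh38.p14. Aligner, counter and strandedness were not given in the sources used here. Counts of rows with the same symbol were summed, and 4956 unnamed loci (1.20 to 1.30% of counts) stayed in the totals. Features were filtered with filterByExpr, scaled by TMM and tested with edgeR 4.0.16 (glmQLFit, robust, and two-sided glmQLFTest, R 4.3.3). P-values were adjusted by Benjamini-Hochberg across the 15638 features, and the threshold was 0.05. The biological coefficient of variation was 0.111. Each standard error was the fold change over the root of F. The series design calls the 3 cultures of a group biological replicates. GC content and length came from 1 GENCODE transcript per gene (84.8% of features, all members). The correction removed, per library, a loess surface (span 0.5) of log2 CPM deviations over GC content and log length. Alternatives were other scalings, filters and rows, DESeq2 1.42.0, limma-voom (limma 3.58.1), the replicate number as a block, each library left out and an adjusted p under 0.01. The fits were tested on simulated data. Named genes were GLUD1, called members, those of extreme level or known role, and up to 4 called genes per companion list. PTCD3, CHCHD1, GADD45GIP1, AURKAIP1, MRPL38, MRPL23, MRPL41 and the neighbours were added after their values were seen. The members and lists were chosen with earlier results of these data known.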

Additional observations from a re-analysis of the deposited data

How the results depend on the processing

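Other scalings and filters changed few calls. Values are given as higher and lower calls. Leaving out 1 library gave 8 to 22 higher and 0 to 17 lower of the 77 genes (large subunit 4 to 13 and 0 to 11, small subunit 3 to 9 and 0 to 6), 2 to 13 and 0 to 13 of the other mitochondrial translation genes, 9 to 30 and 0 to 6 of the cytosolic ribosomal protein genes, and 3 to 8 lower of the mitochondrial mRNAs. The median log2 fold change of the small subunit lay between 0.06 and 0.13 in these fits. Over all features, leaving out 1 library gave 1161 to 2978 higher and 1053 to 3258 lower calls. With GC and length correction the counts were 26 and 6 of the 77 (large 18 and 3, small 8 and 3), 10 and 1 of the other mitochondrial translation genes and 50 of the cytosolic ones, and the large subunit median was 0.14. MRPL12 turned to 0.27 and MRPS36 to -0.02. Correlations of same-numbered libraries, in deviations from group means, were 0.395, 0.113 and -0.111. Those of differently numbered libraries ran from -0.504 to 0.491. Deviations within a group depend on each other, so these values cannot settle whether the numbers pair the samples, and the labels do not say. With the replicate block 4 of the 77 were lower (2 in each subunit), 8 of the other translation genes and 2 cytosolic genes, and with block and correction the counts were 25 and 5 of the 77 (large 17 and 2, small 8 and 3), 9 and 1 of the other translation genes and 53 cytosolic, a large subunit median of 0.14, MRPL12 at 0.27 and MRPS36 at -0.02. DESeq2 called 4 of the 77 lower, 2 in each subunit. Without a filter, and with limma-voom, 2 large subunit genes were lower. With only the highest row of a symbol 1 of the 77 was lower, 0 of the large subunit, with 2 of the other translation genes and 5 mitochondrial mRNAs lower. At an adjusted p under 0.01 the counts were 8 and 0 of the 77 (large 4 and 0, small 4 and 0), 3 and 0 of the other translation genes, 10 cytosolic and 3 mitochondrial mRNAs. The cause of these changes was not tested. The part of depth was not tested.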
